A study of Mus musculus with 33 samples.

Results

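The distal colon was compared with the proximal colon of the same mouse, over the whole sorted epithelium. The members were the proximal and distal libraries, each summed over all of its cells, and a mouse was used where both of its libraries held at least 50 cells. This left 16 of the 22 proximal and distal libraries and of the 33 libraries of the series, from 8 of 11 mice (3 of 5 young and 5 of 6 old). They held 12851 of the 23762 cells, 7862 proximal and 4989 distal. All mice were untreated, wild-type, female C57BL6/J animals, group housed and free of specific pathogens. Young mice were 8 to 20 weeks old and old mice 90 to 108 weeks, and the labels give no age for a single mouse. Crypts of each segment were dissociated to single cells, sorted for the epithelial surface protein EpCAM and counted as unique molecular identifiers (UMIs, 1 per captured RNA molecule) with a droplet 3′ kit. The animals were not perturbed, so the comparison is an anatomical one, and it describes crypt cells that passed the sort.

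The proximal colon lies next to the cecum and the distal colon next to the rectum. In both, a single layer of epithelium is renewed from stem cells at the crypt base and consists mainly of absorptive colonocytes and mucus-secreting goblet cells, with few hormone-secreting enteroendocrine cells and chemosensory tuft cells. The segments are laid down under Hox genes, whose clusters are ordered along the body axis. In adults the proximal segment is known for fermentation products, bile acids and a loose mucus, and the distal segment for aldosterone-regulated sodium uptake and a firm, stratified mucus.

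Library totals ran from 1348611 to 13242274 UMIs, and the distal total was below the proximal one in 8 of 8 mice. Median UMIs per cell were 15481 ± 11642 (SD, n = 8) in proximal and 14153 ± 10229 in distal libraries, and the paired difference did not pass an exact sign-flip permutation test (two-sided p = 0.109). Median genes per cell, not thinned to 1 depth, were lower in the distal library of 8 of 8 mice, by 241 ± 69.6 (SE; exact p = 0.0078). The median share of mitochondrially encoded UMIs was lower in the distal library of 8 of 8 mice, by 1.32 ± 0.36 percentage points (SE; exact p = 0.0078, the smallest this design allows). By depth the mice fell into a high batch (young mouse 3, old mice 2 and 3) and a low batch (the other 5 mice), and the labels name kit versions 2 and 3.1 without saying which mouse had which. The proximal library of old mouse 2 stood apart: only 4 of its 359 cells (1.11%, 95% Wilson interval 0.434 to 2.83%, counting error only) carried high goblet-cell markers. The libraries of young mouse 5 were the shallowest, with medians of 3608 UMIs per proximal and 2998 per distal cell. Proximal and distal libraries shared 0 cell barcodes within a mouse and 81 between different mice. Epcam was at a median of 2169 UMIs per 1e6 of the library total (CPM) in proximal and 2272 in distal libraries. Of 32 immune markers in the files 3 passed the filter on low counts, as did 3 of 22 markers of stromal, vascular and glial cells and 3 of 15 of stratified squamous epithelium.

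Distal and proximal epithelium differed in a large part of the measured genes. Of 11355 genes tested, 4578 (40.3%) passed an adjusted p of 0.05 (edgeR quasi-likelihood test with the mouse as a block, Benjamini-Hochberg adjustment over all genes): 2194 (19.3%) were higher and 2384 (21.0%) lower in distal colon. The counts of list members given below are to be read beside these shares. Most differences were small, with a median size of 0.44 on the log2 scale among higher and 0.42 among lower genes. At least 2-fold differences numbered 353 higher and 331 lower, and at least 8-fold ones 36 higher and 23 lower. Values of the 8 distal and 8 proximal libraries did not overlap for 486 of all 11355 tested genes. Among called genes these were 218 that were higher and 268 that were lower. Because UMIs were summed over all cells, fewer cells of a type and less RNA per cell cannot be told apart in these counts. An alternative fit gave each cell the same weight (the mean of per-cell CPM) and also left out the scaling between libraries. In that fit 1506 genes were higher and 2806 lower. Of its called genes 34.9% were higher, against 47.9% in the summed counts. The median log2 fold change of all genes was -0.07 in that fit and -0.01 in the main comparison. The parts of cell weighting and of scaling in these differences were not tested.

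Among genes at a mean of at least 20 CPM that moved the same way in each of the 8 mice, the largest rises were in a pentraxin, a secreted seminal-vesicle-antigen-like protein, a gut hormone and a posterior Hox factor. Mptx1, a mucosal pentraxin of the same family as C-reactive protein, was at 125, 500 and 1726 CPM (lowest, median and highest library) in proximal and at 10388, 27989 and 72412 CPM in distal colon. The lowest distal library lay above the highest proximal one, and the log2 fold change was 5.92 ± 0.29 (SE here and below; adjusted p = 5.2e-08). Sval1, the seminal-vesicle-antigen-like gene, ran from 9.37 to 244 CPM in proximal (median 60.5) and from 1106 to 8242 CPM in distal libraries (median 2810). Its groups did not overlap either, and the log2 fold change was 5.63 ± 0.38 (adjusted p = 5.9e-07). The 12 largest rises also held Insl5, Tgm3 (a transglutaminase), Hoxb13, Best2, B3gnt7, Spink1 (a trypsin inhibitor), Sh3bgr, St3gal6, Eno3 (an enolase) and Cyp2c68, with log2 fold changes from 2.92 to 5.11. Of these 12 genes, Insl5 and Cyp2c68 alone had overlapping groups.

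**Figure D1:**
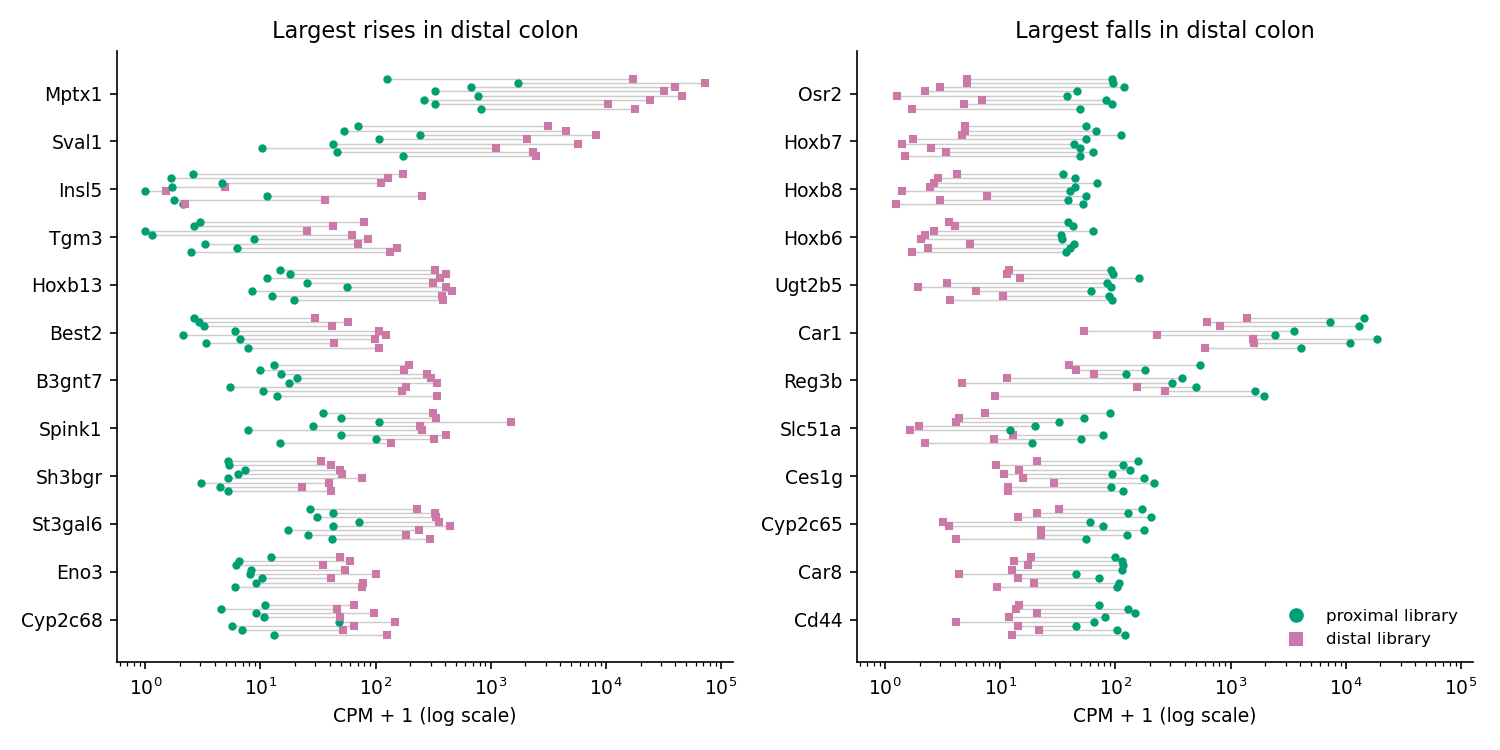
CPM plus 1 (log axis) in each proximal library (green circles) and distal library (pink squares) for the 12 genes with the largest rise (left) and the 12 with the largest fall (right), 1 line per mouse. Mptx1 reaches 72412 CPM in distal colon, and each line of the right panel runs from a higher proximal to a lower distal value.

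By the same rule, the largest falls in distal colon included a zinc-finger factor, the genes Hoxb6 to Hoxb8 and enzymes of absorptive cells. Osr2, an odd-skipped-related zinc-finger factor, was at 36.6, 87.0 and 117 CPM (lowest, median, highest) in proximal and at 0.261, 2.91 and 5.93 CPM in distal libraries. The groups did not overlap, and Osr2 fell by 4.71 ± 0.18 on the log2 scale (adjusted p = 9.7e-09). In the cecum of the same series it averaged 16 CPM, between both segments. The other falls among the 12 largest by that rule were Hoxb7, Hoxb8, Hoxb6, Ugt2b5, Car1, Reg3b, Slc51a, Ces1g, Cyp2c65, Car8 and Cd44, with log2 fold changes from -4.58 to -2.80. In Reg3b and Slc51a the groups overlapped, though distal was lower in 8 of 8 mice for each.

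Of 58 Hox genes and other regional transcription factors in the files, 39 were tested, 15 were higher and 14 lower in distal colon, and their median log2 fold change was -0.01, as for all tested genes. The Hoxb cluster split along its length. Each of the 7 genes from Hoxb2 to Hoxb8 fell, by 3.47 to 4.58 on the log2 scale, Hoxb9 fell less, and Hoxb13, at the other end, rose. These genes lie in 1 run on the plus strand of chromosome 11, from Hoxb13 (chr11:96194316-96197447, build mm10) through Hoxb9 (chr11:96271457-96276595) to Hoxb2 (chr11:96350525-96354012). Hoxb8 was at 34.4, 43.2 and 67.6 CPM (lowest, median, highest) in proximal and 0.240, 1.77 and 6.67 CPM in distal libraries, with no overlap (log2 fold change -4.34 ± 0.25, adjusted p = 1.9e-07). Hoxb9 ran from 63.5 to 86.8 CPM (median 76.3) in proximal and from 25.2 to 51.1 CPM (median 42.3) in distal libraries. It too did not overlap, at a log2 fold change of -0.80 ± 0.07 (adjusted p = 3.0e-06). Hoxb13, a posterior Hox factor kept in adult distal colon and prostate, was at 7.41, 15.4 and 55.1 CPM in proximal and 312, 380 and 457 CPM in distal libraries. The highest proximal value, that of old mouse 2, was still below the lowest distal one (log2 fold change 4.51 ± 0.28, adjusted p = 2.9e-07). The cecum averaged 48.1 CPM for Hoxb8 and 8.70 CPM for Hoxb13, nearer to the proximal than to the distal values.

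Sequence before the start site is shown for the genes with the largest rise and the largest fall that have a RefSeq promoter entry (110 of 156 named genes have one), since Hoxb8 moved together with its neighbours and Mptx1 was the most abundant of the 12 largest rises. Capitals mark CAATAAA or its reverse complement, a core shared by motifs of posterior Hox and Cdx factors. The windows are the 250 bases before the start on GRCm38.p6, plus strand, at chr1:174330268-174330517 for Mptx1 and chr11:96281655-96281904 for Hoxb8.
Mptx1: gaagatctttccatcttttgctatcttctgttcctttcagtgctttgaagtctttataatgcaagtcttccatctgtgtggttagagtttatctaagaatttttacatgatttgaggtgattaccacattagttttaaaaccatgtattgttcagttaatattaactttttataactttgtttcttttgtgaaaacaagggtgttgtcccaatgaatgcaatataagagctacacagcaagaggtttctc
Hoxb8: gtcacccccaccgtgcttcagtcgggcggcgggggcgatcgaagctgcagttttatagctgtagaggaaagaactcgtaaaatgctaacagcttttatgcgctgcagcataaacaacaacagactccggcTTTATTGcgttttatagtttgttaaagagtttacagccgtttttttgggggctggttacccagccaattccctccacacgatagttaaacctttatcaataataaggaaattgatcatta
The motif occurred once in the Hoxb8 window and in neither orientation in that of Mptx1. It was in the windows of 4.89% of all 27025 genes with an entry and of 3.14% of the 8896 tested genes with one. Among genes at least 2-fold higher in distal colon 15 of 262 windows (5.73%) held it, and among those at least 2-fold lower 13 of 246 (5.28%). The HNF4 motif CAAAGTCCA, searched on both strands, was in neither window, in 0.45% of windows of tested genes, and in 1.15% and 1.22% of those of the genes at least 2-fold higher and lower. A match describes the letters and is not a binding site.

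Of the other Hox clusters, the posterior members rose. Hoxd13 was at 0 to 0.504 CPM in proximal and 4.40 to 32.4 CPM in distal libraries (13 against 695 UMIs in all), and its log2 fold change was 5.15 ± 0.22 (adjusted p = 1.9e-08). Hoxd11 was at 0 to 0.853 CPM in proximal and 2.20 to 18.3 CPM in distal libraries (10 against 353 UMIs), at a log2 fold change of 4.26 ± 0.29. In the Hoxa cluster, Hoxa13 (1.55 ± 0.26), Hoxa10 (1.12 ± 0.18) and Hoxa9 (1.07 ± 0.21) rose by more than Hoxa3, Hoxa5 and Hoxa7, which rose by 0.43 to 0.47. The groups of these 6 genes overlapped, and the difference in size between the Hoxa genes was not tested. Hoxa9 differed by depth batch, at 0.36 ± 0.17 in the high and 1.57 ± 0.10 in the low batch. In the high batch alone Hoxa13 (0.96 ± 0.26) and Hoxa10 (0.56 ± 0.15) did not pass (adjusted p = 0.055 for each). Several Hox genes have antisense transcripts, and whether strand was used in the counting is not given in the sources used here, so their reads cannot be told apart. Hox genes of the c cluster did not pass the filter on low counts.

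**Figure D2:**
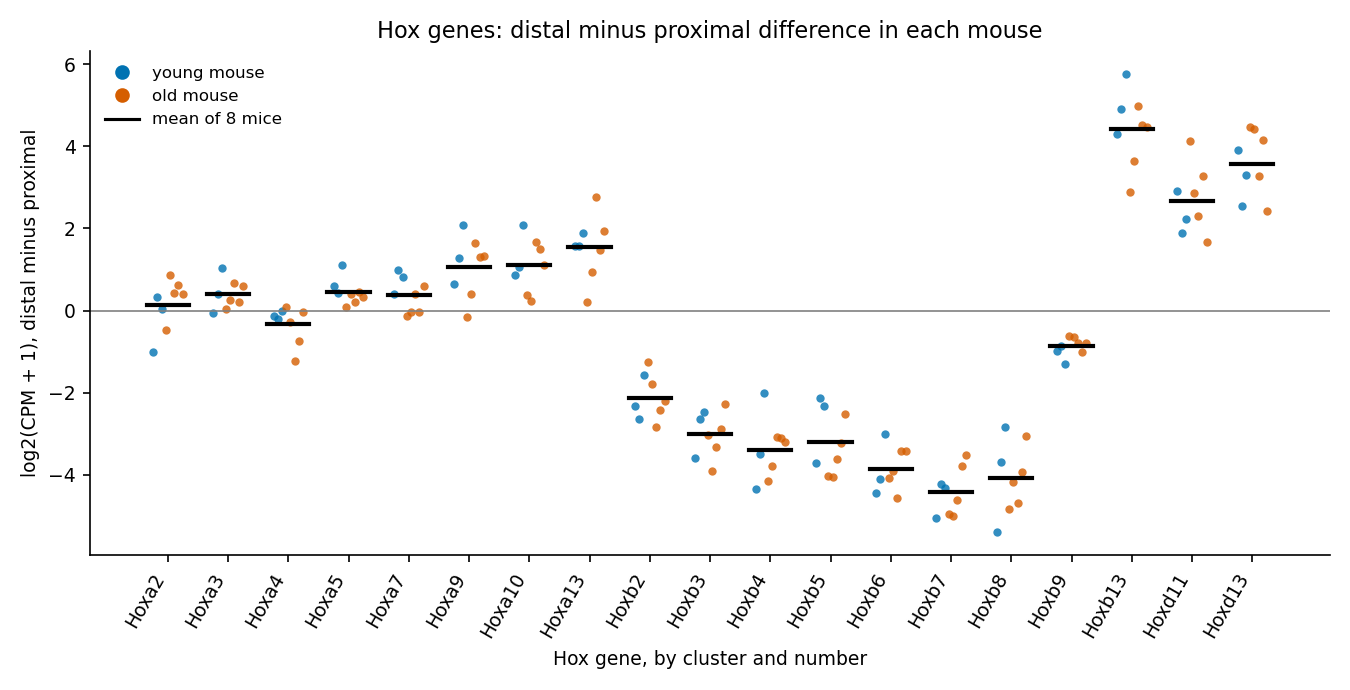
Difference in log2(CPM + 1), distal minus proximal, for each tested Hox gene in order of cluster and number; points are the 8 mice (blue young, orange old) and black bars their mean. Hoxb2 to Hoxb9 lie below 0 and Hoxb13, Hoxd11 and Hoxd13 above 0 in each mouse, and the offset of 1 makes the differences of low genes smaller than the fitted ones.

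Among the other regional factors, Cdx2, the intestinal homeobox factor, was at 250, 301 and 347 CPM in proximal and 47.7, 122 and 163 CPM in distal libraries (lowest, median, highest). It fell without overlap (log2 fold change -1.50 ± 0.14, adjusted p = 9.3e-06), by more in the high (-2.06 ± 0.12) than in the low depth batch (-1.17 ± 0.07). Isx, an intestinal homeobox factor that represses vitamin A uptake genes, fell by 2.66 ± 0.25 on the log2 scale, also with a difference between batches (-3.88 ± 0.19 and -2.13 ± 0.12). Foxa2, a forkhead factor of endoderm, rose by 1.49 ± 0.10 without overlap. Factors of the whole intestinal epithelium were among those that did not pass the test, such as Gata6 (-0.01 ± 0.06), Klf5 (0.04 ± 0.05) and Cdx1 (0.08 ± 0.05).

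Goblet-cell genes were higher in distal colon, and so was the share of cells that carry goblet markers. Of 49 tested genes of mucus and goblet secretion, 36 rose and 4 fell, with a median log2 fold change of 1.03 against -0.01 for all tested genes. The mucus-associated lectin Zg16 was at 45.3, 1013 and 2172 CPM in proximal and 749, 3001 and 6443 CPM in distal libraries (lowest, median, highest). Its groups overlapped but distal was higher in 8 of 8 mice, at a log2 fold change of 2.55 ± 0.43 (adjusted p = 0.00062), with 4.25 ± 0.23 in the high and 1.62 ± 0.15 in the low batch. The mucus protein Fcgbp (1.96 ± 0.28), the trefoil factor Tff3 (1.50 ± 0.41) and the metalloprotease-like Clca1 (2.25 ± 0.47) rose as well. Without old mouse 2 these were 1.69 ± 0.14 for Fcgbp and 1.14 ± 0.13 for Tff3, and Clca1 was at 2.64 ± 0.14 without old mouse 3. Muc2, the gel-forming mucin itself, did not pass the test: its libraries were at 230, 3438 and 4853 CPM in proximal and 2160, 3271 and 3985 CPM in distal colon. Muc2 was higher in distal colon in 4 of 8 mice, at a log2 fold change of 0.24 ± 0.34 (adjusted p = 0.62), and at -0.10 ± 0.09 without old mouse 2.

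Enzymes that build and cap mucin sugars moved in different directions. B3gnt7, which extends lactosamine chains, was at 4.47, 12.4 and 19.6 CPM in proximal and 168, 235 and 343 CPM in distal libraries, without overlap (log2 fold change 4.38 ± 0.12, adjusted p = 1.1e-09). The sialyltransferases St3gal6 (3.14 ± 0.13) and St6galnac6 (1.85 ± 0.06) and the core 2 enzyme Gcnt1 (3.11 ± 0.29) rose without overlap. Gcnt3, another core 2 enzyme, fell by 1.12 ± 0.20 on the log2 scale, with lower distal values in 7 of 8 mice. The surface mucin Muc3 rose by 1.69 ± 0.19, and the antibacterial secreted protein Retnlb fell by 1.63 ± 0.35. The separate entry Muc3a went the other way from Muc3. Its log2 fold change ran from -1.32 to -0.18 over 21 alternative settings, and it did not pass under 8 of them. Galnt12 (0.10 ± 0.10) and Gal3st1 (-0.00 ± 0.09), a mucin-initiating and a sulfating enzyme, did not pass the test.

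Goblet-marker-high cells were defined as cells in which 7 genes (Muc2, Tff3, Fcgbp, Clca1, Zg16, Agr2 and Spink4) hold at least 2% of UMIs. Of these 7 genes 6 were called higher in distal colon in the summed counts. The share of such cells is therefore not independent of that result. Their share was 1.11, 18.6 and 24.2% (lowest, median, highest) in proximal and 28.1, 38.6 and 50.3% in distal libraries, and the groups did not overlap. The share was higher by 22.3 ± 4.07 percentage points in distal colon, in 8 of 8 mice (exact sign-flip permutation test, two-sided p = 0.0078, the smallest this design allows). Without old mouse 2 the difference was 18.4 points. The class is a range of a continuous score: in the distal libraries of old mice 9.03 to 34.3% of cells lay between 1 and 4%, and with the limit at 4% the difference was 10.6 points. Median UMIs of the gate genes per goblet-marker-high cell ran from 3.56 to 6.55% in distal and from 4.85 to 9.81% in proximal libraries.

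Both ranges of cells were then compared on their own, without the 7 gate genes. Here a mouse was used where both of its libraries held at least 20 cells of the range, so the mice differ between the ranges. In goblet-marker-high cells of 7 mice (old mouse 2 had too few) 1975 of 8612 genes (22.9%) passed, 856 (9.94%) higher and 1119 (13.0%) lower in distal colon. In goblet-marker-low cells of 10 mice 3765 of 10892 genes (34.6%) passed, 1876 (17.2%) higher and 1889 (17.3%) lower. With the 8 mice of the all-cell comparison 3742 of 10904 genes passed in these cells. The goblet-marker-low fold changes given below are from the 10 mice. The difference between segments differed between the ranges for 1688 of 10341 genes (16.3%, range by segment interaction, edgeR). The interaction was fitted on the 7 mice of the goblet-marker-high comparison for both ranges. Within goblet-marker-high cells 15 of 38 mucus and goblet genes rose and 10 fell, with a median of 0.12, and within goblet-marker-low cells 21 of 35 rose and 4 fell.

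Osr2 and Hoxb13 had the same direction in both ranges of cells. Osr2 had log2 fold changes of -4.51 ± 0.14 in goblet-marker-high and -4.48 ± 0.21 in goblet-marker-low cells, and Hoxb13 of 4.00 ± 0.18 and 4.31 ± 0.34 (interaction adjusted p = 0.65 and 0.052). Mptx1 averaged 2319 CPM in proximal and 69746 CPM in distal goblet-marker-high cells, and 208 and 3678 CPM in goblet-marker-low cells. The part of free RNA in these goblet-marker-low values was not tested. Spink1 rose in goblet-marker-high cells (3.81 ± 0.18) and was at 0.66 ± 0.43 in the others (adjusted p = 0.25), and that difference passed the interaction test (adjusted p = 9.1e-05). Ano1, a calcium-activated chloride channel, had the reverse pattern, at -0.03 ± 0.12 in goblet-marker-high and 3.41 ± 0.12 in goblet-marker-low cells (interaction adjusted p = 7.7e-10). Retnlb fell in goblet-marker-high cells (-2.68 ± 0.35) and was at 0.02 ± 0.12 in the others (interaction adjusted p = 0.0013).

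**Figure D3:**
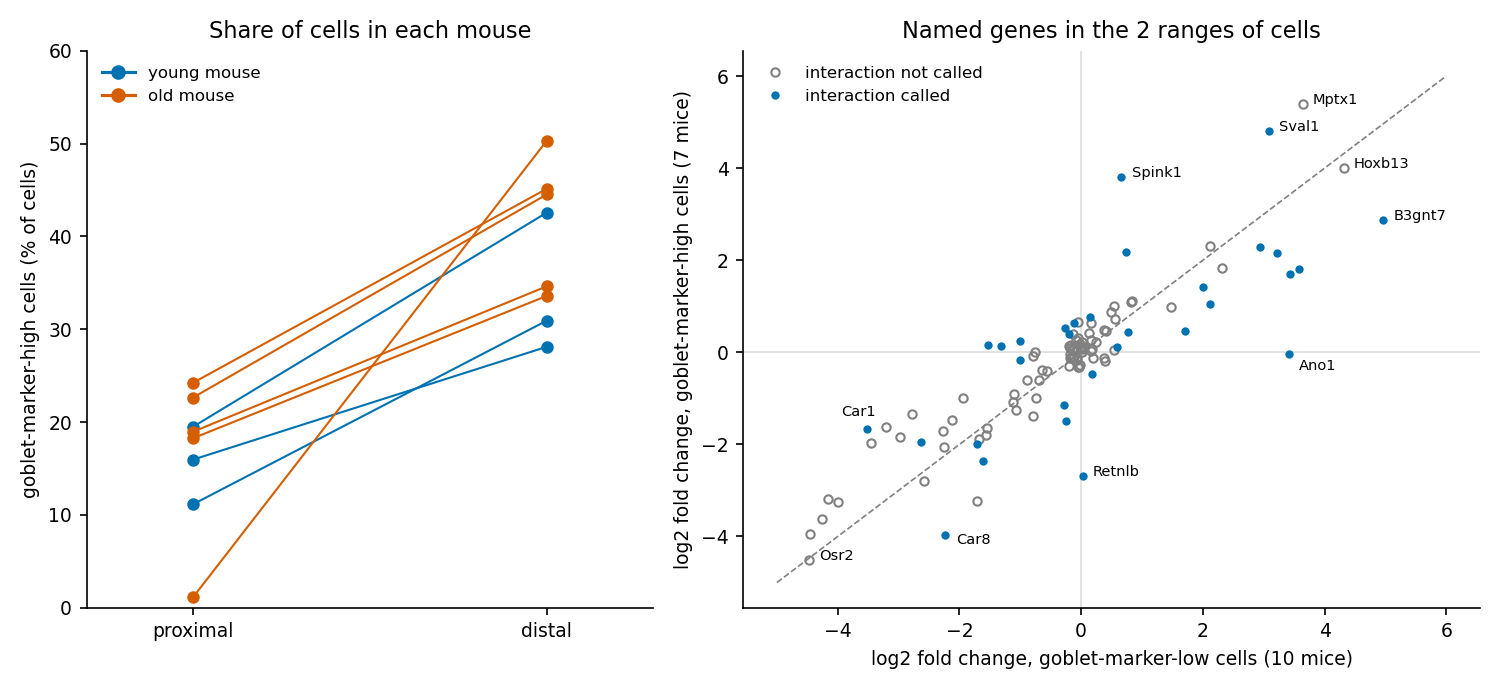
Left, percent of cells that are goblet-marker-high in the proximal and distal library of each mouse (blue young, orange old); the line of old mouse 2 runs from 1.11 to 50.3%. Right, log2 fold changes of 109 named genes in goblet-marker-low (x axis) and goblet-marker-high cells (y axis), filled where the interaction passed (31 genes), with a dashed line of equal change; Spink1 and Ano1 lie far from it.

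Genes of salt transport were divided. Of 37 tested genes of sodium, chloride and potassium transport 13 rose and 13 fell, with a median of 0.00. Among the rises, Fxyd4, a regulator of the sodium pump, was at 0.276, 0.428 and 1.81 CPM in proximal and 6.83, 32.2 and 71.8 CPM in distal libraries, with no overlap (log2 fold change 5.34 ± 0.16, adjusted p = 1.1e-09). The sodium channel subunit Scnn1a rose by 1.25 ± 0.20 without overlap, and in goblet-marker-low cells by 1.76 ± 0.16. Hsd11b2, which shields the mineralocorticoid receptor from glucocorticoids, was higher in 8 of 8 mice (1.54 ± 0.16), as was Ano1 (2.05 ± 0.18). Best2, a bestrophin anion channel of colonic goblet cells, ran from 1.11 to 6.82 CPM in proximal (median 2.28) and from 28.6 to 121 CPM in distal libraries (median 76.9), without overlap (4.43 ± 0.21, adjusted p = 3.9e-08). Within goblet-marker-high cells Best2 rose by 3.35 ± 0.09. The falls held Kcnq1, a basolateral potassium channel (-1.10 ± 0.11), the aldosterone-induced kinase Sgk1 (-1.01 ± 0.06) and Cftr, the apical chloride channel (-0.49 ± 0.10). Sgk1 fell in goblet-marker-low cells (-1.32 ± 0.12) and was at 0.14 ± 0.17 in goblet-marker-high cells (interaction adjusted p = 0.00031), and Cftr did not pass in goblet-marker-low cells (-0.12 ± 0.07, adjusted p = 0.18). The chloride-bicarbonate exchanger Slc26a3 (0.06 ± 0.33) did not pass the test.

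Of 11 tested carbonic anhydrases and aquaporins 7 fell and 1 rose, with a median of -0.50. Car1, a cytosolic carbonic anhydrase of colonocytes, was at 2406, 9141 and 18686 CPM in proximal and 52.2, 713 and 1587 CPM in distal libraries (lowest, median, highest). The groups did not overlap, and the log2 fold change was -3.57 ± 0.31 (adjusted p = 3.7e-06). Its mean in the cecum was 15163 CPM, and in goblet-marker-low cells it fell by 3.53 ± 0.28. Car8, a carbonic anhydrase-related protein without enzyme activity, fell by 2.86 ± 0.13, Car12, a membrane-bound form, by 2.02 ± 0.15, and the water channel Aqp1 by 1.90 ± 0.13, each without overlap. Car2 (-0.18 ± 0.07) and Car4 (-0.29 ± 0.37) did not pass. Aqp4, a basolateral water channel, rose by 1.43 ± 0.35 with higher distal values in 6 of 8 mice. Its difference was 0.18 ± 0.34 in the high and 2.14 ± 0.12 in the low depth batch (interaction adjusted p = 0.065).

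Enzymes of detoxification and steroid metabolism were mostly lower in distal colon: 36 of 54 tested fell and 5 rose, with a median of -0.65. Ugt2b5, a glucuronosyltransferase, was at 59.8, 90.8 and 160 CPM in proximal and 0.915, 7.38 and 13.7 CPM in distal libraries. It fell without overlap (log2 fold change -3.68 ± 0.28, adjusted p = 1.4e-06), with -5.36 ± 0.25 in the high and -3.15 ± 0.09 in the low batch. The carboxylesterase Ces1g (-3.20 ± 0.09) and the cytochromes P450 Cyp2c65 (-3.15 ± 0.25) and Cyp4b1 (-3.20 ± 0.14) fell as well, and Cyp2c55, another P450, fell by 2.50 ± 0.29. The steroid dehydrogenase Hsd3b3 fell by 1.56 ± 0.24, by 2.48 ± 0.22 in the high and 1.02 ± 0.09 in the low batch. Against these, Cyp2c68 rose by 2.92 ± 0.22 and the alcohol dehydrogenase Adh1 by 2.00 ± 0.12. Adh1 ran from 62.9 to 261 CPM in proximal and from 325 to 1007 CPM in distal libraries, without overlap. Ugt2b34 (-0.06 ± 0.05) and Gsta3 (-0.02 ± 0.17), a conjugating enzyme each, did not pass. In goblet-marker-low cells 30 of 54 fell and 6 rose, and in goblet-marker-high cells 19 of 45 fell and 7 rose. The Ces1, Cyp2c and Ugt2b genes have close paralogs whose 3′ reads may be divided between copies, so the values of single members are uncertain.

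Of 41 tested genes of lipid and bile acid handling 19 fell and 9 rose, with a median of -0.15. Of all tested genes 21.0% were lower and 19.3% higher. Both subunits of the basolateral bile acid exporter fell, Slc51a by 3.23 ± 0.16 and Slc51b by 1.57 ± 0.15. The bile acid receptor Nr1h4 (-1.12 ± 0.07) and the lipid-sensing receptor Pparg (-1.19 ± 0.08) fell without overlap. Among the rises, Hmgcs1, the cytosolic synthase of the cholesterol pathway, rose by 1.13 ± 0.09. The desaturase Scd2 rose by 1.25 ± 0.10. Hmgcs1 and Scd2 were each higher in distal colon in 8 of 8 mice, with overlapping groups. Dgat1 (-0.08 ± 0.09) and Plin2 (0.10 ± 0.05), of triglyceride synthesis and lipid droplets, did not pass.

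**Figure D4:**
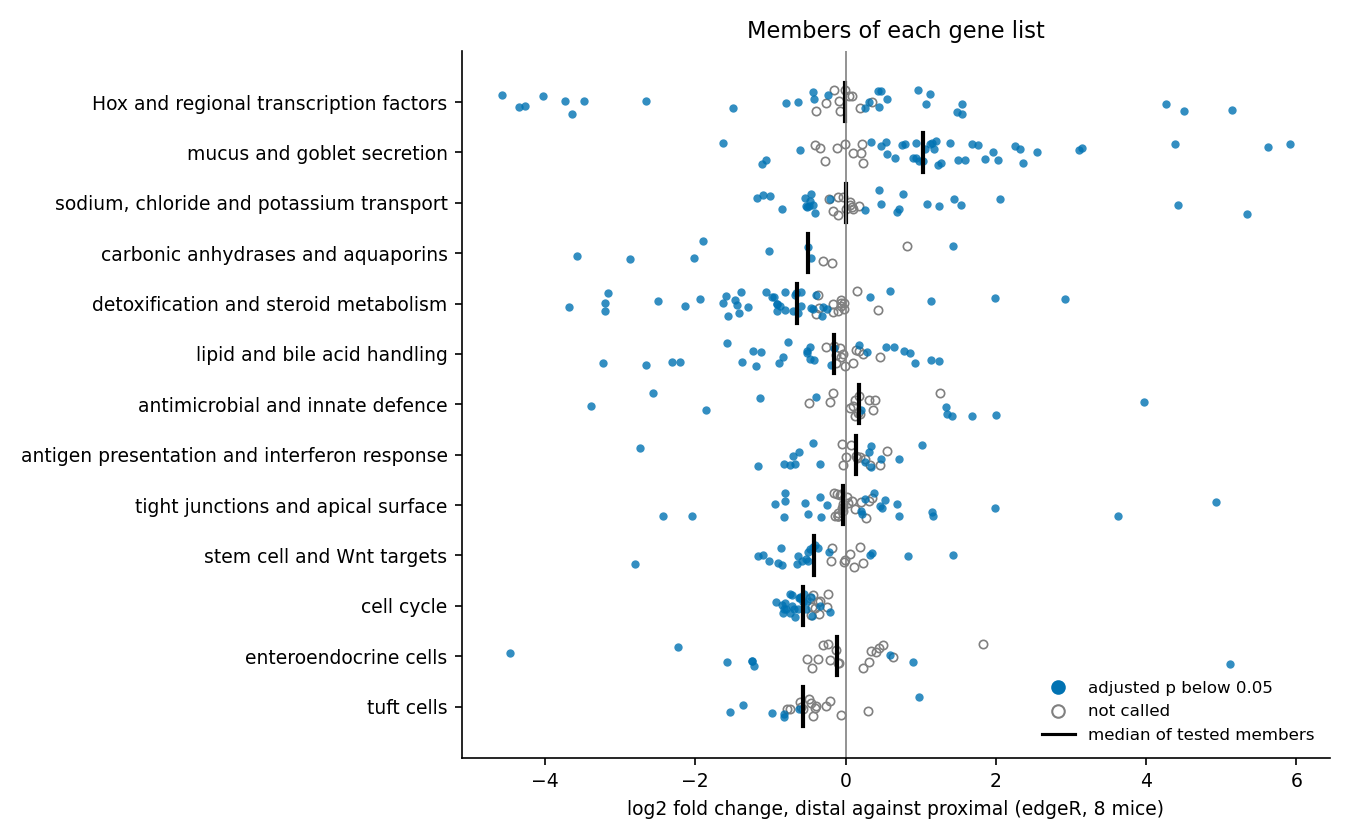
Log2 fold change of distal against proximal colon for each tested member of 13 gene lists (points; filled where the adjusted p was below 0.05) with the median of each list as a black bar. The mucus list has its median at 1.03 and the detoxification list at -0.65, and the Hox list holds values on both sides of 0 with a median of -0.01.

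Of 26 tested genes of antimicrobial and innate defence 7 rose and 5 fell, with a median of 0.18, beside 19.3% higher and 21.0% lower of all tested genes. The antibacterial lectin Reg3b was at 123, 438 and 1958 CPM in proximal and 3.66, 41.6 and 268 CPM in distal libraries. Distal was lower in 8 of 8 mice with overlapping groups, at a log2 fold change of -3.39 ± 0.69 (adjusted p = 0.0021), and the difference was -6.40 ± 0.49 in the high and -2.17 ± 0.30 in the low batch. Its close paralog Reg3g fell by 2.56 ± 0.56 (-5.39 ± 0.33 and -1.46 ± 0.16 in the batches), and reads may be divided between them. Dmbt1, a scavenger receptor of mucosal surfaces, fell by 1.85 ± 0.23 without overlap (-2.72 ± 0.17 and -1.33 ± 0.11). Wfdc2, a secreted protease inhibitor, rose by 1.68 ± 0.15, the acute-phase protein Saa1 by 2.00 ± 0.36 and the cytokine Il18 by 1.34 ± 0.12. The protease inhibitor Slpi was at 0 to 0.227 CPM in proximal and 2.45 to 11.4 CPM in distal libraries (5 against 235 UMIs), without overlap (adjusted p = 4.5e-07). Noxo1 (0.06 ± 0.06) and Itln1 (0.18 ± 0.17), an oxidase organizer and a sugar-binding lectin, did not pass. Of 27 tested genes of antigen presentation and interferon response 7 rose and 9 fell, with a median of 0.14. The nonclassical class I gene H2-T3, expressed on intestinal epithelium, fell most, by 2.73 ± 0.22 without overlap, and H2-D1, a classical class I gene, rose by 0.35 ± 0.06. Class I genes also have close paralogs.

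Of 46 tested genes of tight junctions and the apical surface 14 rose and 11 fell, beside 19.3% higher and 21.0% lower of all tested genes, and the median was -0.03. Tgm3, the transglutaminase, was at 0, 1.80 and 7.87 CPM in proximal and 24.3, 74.2 and 153 CPM in distal libraries, without overlap (log2 fold change 4.93 ± 0.30, adjusted p = 2.8e-07). The pore-forming claudins Cldn2 (-0.82 ± 0.18) and Cldn15 (-0.50 ± 0.07) fell, and the barrier claudin Cldn3 (0.02 ± 0.05) did not pass. The adhesion protein Tmigd1 fell by 2.43 ± 0.21. Of 17 colonocyte markers 3 rose and 7 fell, with a median of -0.22, and in goblet-marker-low cells 6 rose and 7 fell.

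Stem-cell and proliferation genes were mostly lower in distal colon. Of 30 tested stem-cell genes and Wnt targets 18 fell and 4 rose, with a median of -0.42. Cd44, a hyaluronan receptor and Wnt target, was at 44.4, 91.2 and 146 CPM in proximal and 3.14, 13 and 20.5 CPM in distal libraries. It fell without overlap (-2.80 ± 0.18, adjusted p = 5.0e-07), and was at -2.80 ± 0.18 in goblet-marker-high and -2.59 ± 0.14 in goblet-marker-low cells (interaction adjusted p = 0.23). The stem-cell receptor Lgr5 was at 6.21, 15.8 and 20.6 CPM in proximal and 2.97, 6.58 and 11 CPM in distal libraries. Distal was lower in 8 of 8 mice, at a log2 fold change of -1.02 ± 0.13 (adjusted p = 0.00010). Prom1 (-1.17 ± 0.13), a surface protein of crypt base cells, and the stem-cell factor Ascl2 (-0.86 ± 0.14) fell, while Lgr4 (0.35 ± 0.07), Lrig1 (0.33 ± 0.08) and Lrig3 (0.84 ± 0.08), a receptor of R-spondins and 2 growth factor receptor regulators, rose. Of 34 cell-cycle genes 24 fell and 0 rose, with a median of -0.56. The replication factors Cdt1 (-0.92 ± 0.15) and Mcm3 (-0.82 ± 0.14) and the topoisomerase Top2a (-0.67 ± 0.13) were lower in 8 of 8 mice each, with overlapping groups. In goblet-marker-low cells 19 of 34 fell and 0 rose, and in goblet-marker-high cells 0 of 30 fell and 2 rose, with a median of 0.25. The larger share of goblet-marker-high cells in distal libraries moved with these counts, and its part in them was not tested.

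Hormone genes of enteroendocrine cells differed by hormone. Of 26 tested genes of the list 6 fell and 3 rose, with a median of -0.11, beside 21.0% lower and 19.3% higher of all tested genes. Insl5, a relaxin-family hormone of distal L cells, was at 0, 0.953 and 10.4 CPM in proximal and 0.523, 72.3 and 252 CPM in distal libraries. The groups overlapped, with higher distal values in 8 of 8 mice (log2 fold change 5.11 ± 0.40, adjusted p = 1.9e-06). Insl5 rose by 5.45 ± 0.26 in the low depth batch, while in the 3 high-depth mice distal Insl5 was at 0.523 to 3.91 CPM and did not pass the filter. Neurotensin (Nts) was at 0.187, 38.4 and 451 CPM in proximal and 0.392, 2.35 and 4.91 CPM in distal libraries. It was lower in distal colon in 6 of 8 mice (-4.46 ± 0.53, adjusted p = 4.9e-05), and in young mouse 3 and old mouse 2, both of the high batch, both segments were below 0.5 CPM. Secretin (Sct, -2.22 ± 0.41) and chromogranin B (Chgb, -1.24 ± 0.18) fell, while the glucagon precursor Gcg (-0.21 ± 0.42) and peptide YY (Pyy, 1.83 ± 1.05) did not pass. Of 21 tested tuft-cell genes 6 fell and 1 rose, with a median of -0.57. The taste G-protein subunit Gng13 fell (-1.53 ± 0.31), Lrmp rose by 0.98 ± 0.28, and the markers Dclk1 (-0.60 ± 0.31) and Trpm5 (-0.41 ± 0.21) did not pass. Lrmp did not pass under 5 of 21 alternative settings. Its difference in log2(CPM + 1) was 3.26 in old mouse 2 and from -0.22 to 1.45 in the other mice.

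Immune and stromal markers were low. Summed over the immune list, values ran from 7.06 to 63.8 CPM in proximal and 21.9 to 86.2 CPM in distal libraries. Of its 3 tested genes, the complement gene C1qa of macrophages fell (-2.94 ± 0.27) and the pan-leukocyte Ptprc (0.27 ± 0.24) did not pass. The other, the receptor tyrosine kinase Kit, rose (1.00 ± 0.34, and 0.63 ± 0.11 without old mouse 2). Kit alone was at 4.03 to 35.1 CPM in proximal and 15.1 to 80.6 CPM in distal libraries. It made up a large part of the distal immune sums, which cannot be read as leukocyte content alone. The stromal list summed to 7.36 to 21.5 CPM in proximal and 5.19 to 10.3 CPM in distal libraries, with Vim, an intermediate filament of mesenchyme, lower in distal colon (-1.57 ± 0.26). The squamous list summed to 159 to 223 CPM in proximal and 115 to 232 CPM in distal libraries, and none of its 3 tested genes passed. The list of small intestinal enterocytes and Paneth cells was higher, at 1313 to 4870 CPM in proximal and 401 to 2871 CPM in distal libraries. Of its 17 tested genes 5 fell and 0 rose, beside 21.0% lower and 19.3% higher of all tested genes. Of 27 stress and dissociation genes 9 rose and 10 fell, with the heat shock gene Hspa1a lower in 8 of 8 mice (-1.92 ± 0.20), and 5 of 13 mitochondrially encoded genes fell. The part of these in the other results was not tested.

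No gene passed the test of a segment difference that varies with age. The age by segment interaction called 0 of 11355 genes (0.0%) by edgeR, with 466 at an unadjusted p below 0.05, and DESeq2 called 2, Kcnq1ot1 and Scd2. Leaving out 1 mouse at a time gave 0 or 1 call: Ly6e without old mouse 2, Defa21 without young mouse 4 and Kcnq1ot1 without young mouse 5 (the 4 genes are named because they were called). Scd2 had an old minus young difference of -0.61 ± 0.13 in DESeq2 (adjusted p = 0.015). The share of goblet-marker-high cells rose by 18.3 points in young and 24.6 points in old mice, and the difference between these was not tested.

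The segment difference varied between the depth batches for 18 of 11355 genes (0.159%, edgeR interaction, with 1020 at an unadjusted p below 0.05). They were Aamdc, Azgp1, Cdx2, Cwh43, Dmbt1, Hottip, Hoxa9, Hsd3b3, Isx, Lrat, Prkacb, Rbp2, Reg3b, Reg3g, Selenop, Tmem252, Ugt2b5 and Zg16. These are named because they were called. Depth, kit and other differences between the mice of the batches cannot be told apart. Within the high batch of 3 mice 1525 genes passed in the main comparison, and within the low batch of 5 mice 3725. Of the genes called both in a batch and in all 8 mice, 0 had opposite directions.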

How the data were processed

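Single-cell 3′ RNA libraries of cecum, proximal and distal colon were counted with Cell Ranger on mm10, per the submitters' processing notes, with no version given. The deposited files hold raw UMI counts per gene and cell, with 21852 genes. Every deposited cell had at least 1001 detected genes and at most 14.994% mitochondrial UMIs. How cells were chosen before deposit is not given in the sources used here. Doublets were not removed, and free RNA was not corrected.

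Counts were summed over all cells of a library. Genes were kept by edgeR's expression filter, scaled by TMM and tested with the edgeR 4.0.16 quasi-likelihood test with mouse as a block (limma 3.58.1, R 4.3.3, prior count 2, Benjamini-Hochberg threshold 0.05). The number in a title ties the segments of 1 mouse: the 11 names match the 11 mice of the growth protocol, so the block is by animal. Fold changes are distal over proximal. The SE of an edgeR log2 fold change was derived as its absolute size divided by the square root of the test's F statistic. It is not the spread between mice. DESeq2 1.42.0 was an alternative, as were other scaling and filters, other minimum numbers of cells, no block, subsets by age and depth, and leaving out each mouse. In counts simulated for the main comparison (11295 genes), 89.5% of 200 genes changed by 1 on the log2 scale were recovered and 3.24% of calls were false. The simulation assumed a between-library coefficient of variation of 0.25, not estimated from these data. It also changed far fewer genes than were called in the real counts. Its share of false calls therefore does not describe the calls of the main comparison. Shares were tested by exact sign-flip permutation. Intervals cover counting error only.

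Genes named were the 12 highest and 12 lowest called genes that moved the same way in each of the 8 mice, at a mean of at least 20 CPM (unnamed models, mitochondrial and ribosomal genes left out). From each list up to 4 called members with the largest change and up to 2 uncalled members at 20 CPM or more with the smallest change were added. Other list members are given as examples chosen after their values were seen. The comparison and the 21 gene lists were chosen with earlier results of these data known. Gene positions are from GENCODE M21, which matched 21497 symbols, and promoter windows from RefSeq (GRCm38.p6).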

Additional observations from a re-analysis of the deposited data

Results flagged for a closer look

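The values below are differences in log2(CPM + 1), distal minus proximal, of single mice that lay far from the other 7 mice. Of 159 values examined 21 stood apart, and chance alone sets about 1 in 20 such groups apart. Old mouse 2, whose proximal library held few goblet-marker-high cells, had 13 of them. Its share of goblet-marker-high cells rose by 49.2 percentage points, against 12.2 to 23.1 points in the others. Muc2 stood at 3.38 in this mouse, against -0.69 to 0.19 in the others, and Tff3 at 5.29 against 0.20 to 1.61. Fcgbp stood at 4.13, Best2 at 5.86, Kit at 4.02, Rbp4 at 3.35 and Hsd11b2 at 2.68, each above the other mice. Galnt12 (0.88) and Gcnt3 (0.56) were above 0 there, while Gcnt3 was between -1.67 and -1.17 in the others. Mcm3 (-1.86), mt-Cytb (-0.61) and mt-Nd3 (-0.54) were lower than in the other mice.

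In old mouse 3, Car1 stood at -6.07 against -4.0 to -2.76, Ceacam20, an adhesion molecule of the apical surface, at -0.75 against 0.16 to 0.94, and Clca1 at -2.01 against 1.96 to 3.29. Young mouse 5, the shallowest, had low values of the Paneth cell defensins Defa24 (-1.64) and Defa30 (-1.82), of the hormone Gip (-2.46) and of mt-Nd5 (-0.92). In young mouse 3, the acute-phase gene Saa1 stood at 4.91 against 0.56 to 2.50. Without young mouse 3 the fitted log2 fold change of Saa1 was 1.70.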

How the results depend on the processing

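Without the block for the mouse, the pairing was lost and 1565 genes passed in all cells, 512 in goblet-marker-high and 1250 in goblet-marker-low cells, and 43 of the 120 called named genes did not pass. The subsets of 3 mice called 1525 genes (high-depth mice only) and 1632 genes (young mice only). They also differed from the full set in depth or age, and the part of the number of mice was not tested. Gsta3, not called in all mice, was at 0.46 in the young mice only. DESeq2 called 2 genes in the age by segment interaction. Leaving out each mouse gave 0 to 1 genes in that interaction, 3885 to 4478 in all cells, 1581 to 2007 in goblet-marker-high and 3230 to 3941 in goblet-marker-low cells, and a difference in goblet-marker-high share of 18.4 to 23.7 points. That difference was 24.0 points with the limit at 1% and 10.6 points at 4%. Of the 120 named genes called, 112 passed whichever mouse was left out (Cdhr1 was filtered out in 1 of these fits), and 63 passed under every setting that tested them (of these Insl5, Nts, C1qa and Angptl4 were filtered out under at least 1 setting); Alpi, Ccl20, Ceacam20, Hspb1, Kit, Mmp7, Muc3a and Siglecf did not pass without at least 1 of the mice. Where a gene was lost, the cause was not tested. Among genes called both in the main fit and under another setting of the main comparison, 0 had opposite directions. The settings share most libraries, and changes of direction in genes not called under a setting were not counted. With the mean of per-cell CPM, fitted by limma without TMM scaling, the median log2 fold change of all genes was -0.07. The part of the weighting by cell in this was not tested. Depth limits low genes most, since the shallowest library held 1348611 UMIs.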
